A study of Mus musculus with 16 samples.

Results

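The CXC chemokines are small secreted proteins that guide leukocytes, and the genes described here are 9 of them (Cxcl9, Cxcl10, Cxcl11, Cxcl1, Cxcl2, Cxcl5, Cxcl12, Cxcl14 and Cxcl16) together with Pf4, which encodes platelet factor 4. Members were chosen by name: every array probe whose annotated symbol was one of these 10 genes was taken, which gave 15 probes among the 23978 probes with 1 gene symbol. A probe was kept for testing when its detection p, the deposited p-value for a signal above the array's background, was under 0.05 on at least 2 arrays. By that filter 10 of the 15 probes were kept, so that 7 of the 10 genes were tested among 9903 genes in all. Cxcl2, Cxcl5 and Cxcl11 were detected on 0 of 16 arrays and have no measured level here.

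Tissue RNA came from 16 mammary tumours of FvB mice, each below 1 cm in diameter, which carry Neu, a rat form of the ErbB2 receptor gene, under the mouse mammary tumour virus (MMTV) promoter that drives it in mammary epithelium. The groups were 5 primary tumours, 2 secondary tumours grown after transplantation of lin- cells (lineage-negative cells), and 9 secondary tumours each grown from 1 tumour-initiating cell (single TIC). The labels give no host genotype, age or batch, and primary tumours have names beginning with N and secondary tumours names beginning with WT. Nothing states that tumours came from separate donors or cell preparations, so p-values measure only the spread between these tumours, which are numbered by their order in the series.

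Chemokines bind receptors coupled to G proteins on leukocytes and other cells, and a gradient of the ligand directs the movement of the cell. Cxcl9, Cxcl10 and Cxcl11 are induced by interferons and attract T and NK cells through Cxcr3, whereas Cxcl1, Cxcl2 and Cxcl5 attract neutrophils through Cxcr2 and are induced through NF-kB. Cxcl12 is made by stromal cells and binds Cxcr4, Cxcl14 is made at steady level in many epithelia and by fibroblasts, Cxcl16 is anchored in the membrane and binds Cxcr6, and Pf4 is stored in the granules of platelets.

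The stretches upstream of 5 members are shown because these genes all lie on chromosome 5 and include both members that rose, Cxcl9 and Pf4, with other members of the interferon-induced and neutrophil-attracting groups. Each is the 250 bases before the annotated start in RefSeq's GRCm38.p6 annotation, read 5′ to 3′ on the strand of the gene, with motif matches in capitals. The windows are chr5:92328080-92328329 (minus strand) for Cxcl9, chr5:92348890-92349139 (minus strand) for Cxcl10, chr5:90890995-90891244 (plus strand) for Cxcl1, chr5:90903649-90903898 (plus strand) for Cxcl2 and chr5:90772185-90772434 (plus strand) for Pf4.
Cxcl9: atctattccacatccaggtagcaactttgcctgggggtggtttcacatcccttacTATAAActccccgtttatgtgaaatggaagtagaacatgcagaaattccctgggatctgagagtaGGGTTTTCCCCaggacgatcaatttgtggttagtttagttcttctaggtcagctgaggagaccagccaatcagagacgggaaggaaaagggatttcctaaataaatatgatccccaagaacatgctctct
Cxcl10: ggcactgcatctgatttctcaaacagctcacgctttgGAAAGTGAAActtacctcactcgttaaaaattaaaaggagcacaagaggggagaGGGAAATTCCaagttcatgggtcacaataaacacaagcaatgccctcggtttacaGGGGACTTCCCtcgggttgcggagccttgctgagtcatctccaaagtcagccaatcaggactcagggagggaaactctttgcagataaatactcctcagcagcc
Cxcl1: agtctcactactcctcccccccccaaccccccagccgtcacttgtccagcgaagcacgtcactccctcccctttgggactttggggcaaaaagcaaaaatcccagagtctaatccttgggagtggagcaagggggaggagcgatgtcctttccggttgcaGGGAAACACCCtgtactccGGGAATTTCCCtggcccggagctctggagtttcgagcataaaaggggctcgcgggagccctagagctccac
Cxcl2: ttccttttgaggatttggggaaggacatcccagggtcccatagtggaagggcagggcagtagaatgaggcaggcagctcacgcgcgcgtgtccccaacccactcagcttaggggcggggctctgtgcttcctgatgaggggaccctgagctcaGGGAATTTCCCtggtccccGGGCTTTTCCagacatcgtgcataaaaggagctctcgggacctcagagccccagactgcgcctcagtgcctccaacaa
Pf4: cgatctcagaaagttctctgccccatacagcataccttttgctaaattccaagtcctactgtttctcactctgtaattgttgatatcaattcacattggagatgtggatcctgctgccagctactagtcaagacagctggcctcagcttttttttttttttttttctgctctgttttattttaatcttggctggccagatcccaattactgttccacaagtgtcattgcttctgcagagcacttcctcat

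The motifs were searched on both strands, and matches that overlap were counted separately. The NF-kB motif was GGG and CC with any 5 bases between them, which 45.8% of all 32851 windows of this length hold. The interferon-stimulated response element (ISRE) was GAAA, any 2 bases and GAAA again, held by 2.98% of windows. The interferon-gamma activated site (GAS) was TTCNNNGAA, held by 7.02%, and the TATA box was TATAAA, held by 12.4%. Of the 10 members, 7 had a window in the RefSeq table.

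The Cxcl10 window holds 1 ISRE match, GAAAGTGAAA, from 213 to 204 bases before the start, and 3 NF-kB matches. In the Cxcl9 window there are 2 overlapping NF-kB matches and 1 TATA match, with 0 matches of the ISRE or GAS letters. The windows of both neutrophil-attracting genes hold NF-kB matches, 4 for Cxcl1 and 3 for Cxcl2, and the match GGGAATTTCC occurs in each. The Pf4 window holds none of the 4 motifs as spelled here. Of the windows not printed, that of Cxcl14 holds 1 GAS and 1 ISRE match and that of Cxcl12 holds 1 NF-kB match. A match describes letters and does not show that a factor binds there.

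All values below are log2 normalized intensities of the gene's brightest kept probe, so levels can be compared between tumours for 1 gene but not between genes. Mean raw intensity per array ranged from 805 to 935 in primary, 900 to 1021 in lin- and 866 to 1031 in single TIC tumours, and between 12513 and 13163 probes were detected per array. The mean over single TIC tumours was 79.0 above that over primary tumours, and the rises of Cxcl9 and Pf4 are also given with this value as a covariate. The mammary epithelial genes Krt8, Krt18, Cdh1, Elf5, Wap and Csn2 were detected on 16 of 16 arrays, while Krt5 and Krt19 were detected on 0. Single TIC tumour 4 and primary tumour 2 had the lowest mean correlation with the other tumours (0.958 and 0.960), and results that change without them are given as such. Comparisons against primary tumours share the same 5 primary arrays.

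In single TIC against primary tumours, Cxcl9 and Pf4 rose, no member fell, and the other 5 tested members did not pass at an adjusted p under 0.05. Over all 9903 genes 620 passed in this comparison, 6.26%. An unadjusted p under 0.05 was reached by 3 members (Cxcl9, Cxcl14 and Pf4) and by 2507 genes, 25.3%. The median log2 change was 0.94 over the 7 tested members and -0.02 over all genes, where the members tested are those that enough arrays detected. Of the 7 members, 5 had a higher mean in single TIC tumours, against 46.5% of all genes. In lin- against primary tumours 0 members and 0 genes passed (0% of 9903), where 1 member (Pf4) and 975 genes had an unadjusted p under 0.05. Single TIC against lin- tumours also gave 0 members and 0 genes (0%), with 0 members and 167 genes at an unadjusted p under 0.05. Adjusted p-values throughout are limma's with Benjamini-Hochberg adjustment over all genes tested.

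**Figure D1:**
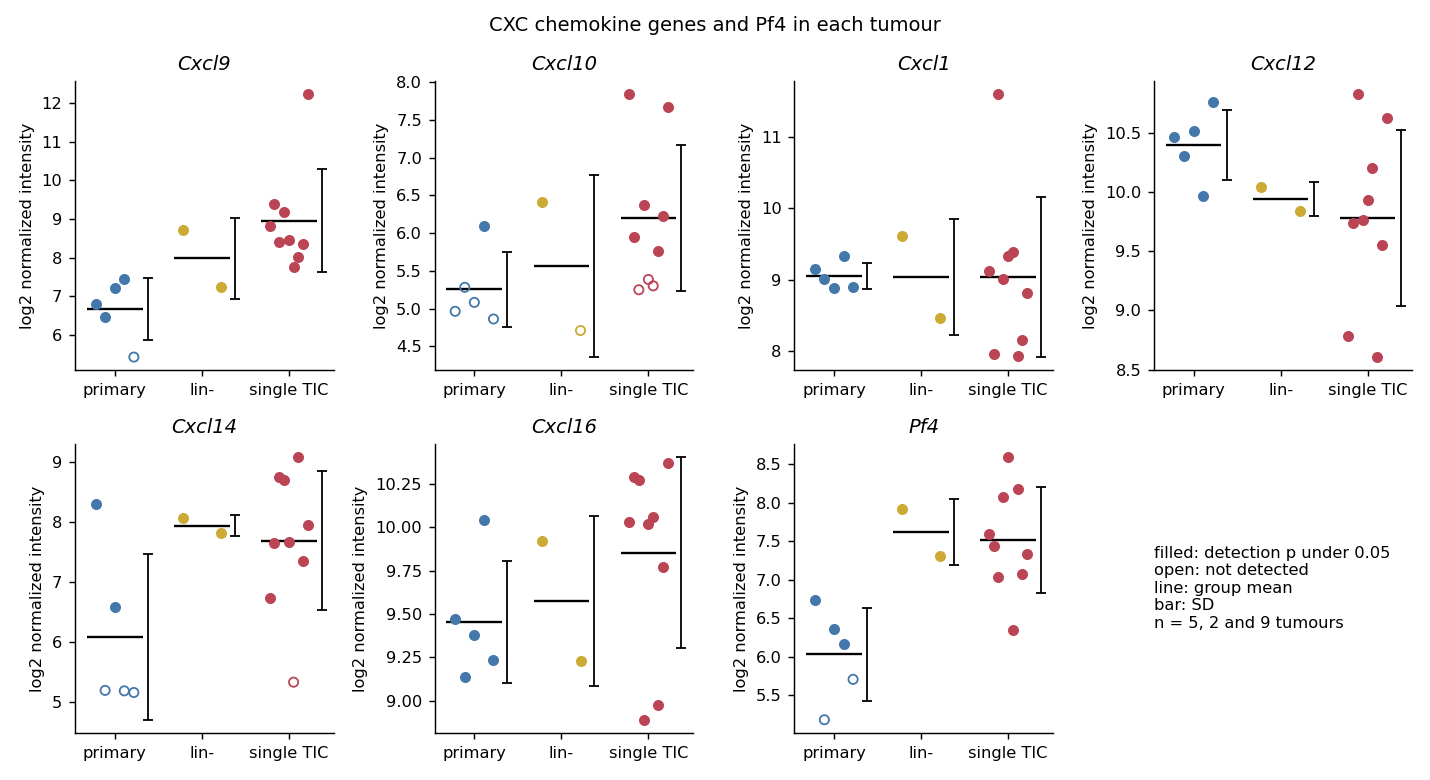
Log2 normalized intensity (vertical axis) of each of the 7 tested members in the 5 primary, 2 lin- and 9 single TIC tumours, with filled points for detected signals, open points for signals not detected, lines for group means and bars for the SD. Cxcl9 separates primary from single TIC tumours, while 1 single TIC tumour stands high for Cxcl9 (12.23) and another for Cxcl1 (11.59).

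Among the interferon-induced members, Cxcl9 was higher in every single TIC tumour than in every primary tumour, Cxcl10 was detected in more single TIC than primary tumours without passing the test, and Cxcl11 was not detected. Cxcl9 encodes the chemokine MIG. In primary tumours 1 to 5 its level was 6.81, 6.46, 7.21, 7.44 and 5.43, the last of these not detected. The lin- tumours gave 8.72 and 7.24, and the single TIC tumours ranged from 7.76 to 12.23 with a median of 8.46. The lowest single TIC tumour thus lay above the highest primary tumour, and the lin- tumours lay on both sides of that gap.

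The mean of Cxcl9 was 6.67 ± 0.79 (SD, n = 5) in primary, 7.98 ± 1.05 (n = 2) in lin- and 8.96 ± 1.33 (n = 9) in single TIC tumours. Between single TIC and primary tumours Cxcl9 rose by 2.29 on the log2 scale (SE 0.59, 95% interval 1.03 to 3.55, 4.89-fold, limma adjusted p = 0.0331), with 9 of 9 single TIC tumours above the primary mean. It was the 1 tested member without overlap in this comparison, and 2.48% of all genes had groups without overlap. The order of the means was primary, lin-, single TIC. Neither step between neighbours passed: lin- exceeded primary by 1.31 (SE 0.89, limma adjusted p = 0.669) and single TIC exceeded lin- by 0.98 (SE 0.83, limma adjusted p = 1.00).

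The rise of Cxcl9 was close to the threshold. Limma adjusted p was 0.0631 with the authors' processed values, 0.0633 without background correction, 0.0648 with array weights, 0.186 with the mean raw intensity of each array as a covariate and 0.0679 without single TIC tumour 4 and primary tumour 2. The first 2 of these settings were nearly alike, with 689 of all genes called in each, and are not separate alternatives. Leaving out 1 tumour at a time gave changes from 1.88 to 2.48 and adjusted p from 0.00926 to 0.0945, and the call was lost without primary 1 (0.0658), primary 2 (0.0503), primary 3 (0.0608), primary 5 (0.0945) or single TIC 2 (0.0531). Without single TIC tumour 9, the highest, the single TIC mean was 8.55 ± 0.56 (n = 8) and the change was 1.88 (limma adjusted p = 0.00926).

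Cxcl10, also known as IP-10, was at background on many arrays: it was detected in 1 of 5 primary, 1 of 2 lin- and 6 of 9 single TIC tumours. Primary tumours gave 4.96, 5.28, 5.08, 6.10 and 4.86, of which only 6.10 was detected. The lin- tumours gave 6.41 and 4.71, and the single TIC tumours ranged from 5.25 to 7.84 with a median of 5.95. The highest values were those of single TIC tumours 1 (7.84) and 9 (7.67), and the groups overlapped. The means were 5.26 ± 0.50, 5.56 ± 1.20 and 6.20 ± 0.97, in the order primary, lin-, single TIC. The difference of 0.94 between single TIC and primary tumours (SE 0.44, 95% interval -0.0047 to 1.88) did not pass (limma adjusted p = 0.199), and neither did the 0.30 between lin- and primary tumours (SE 0.67, limma adjusted p = 0.931) or the 0.64 between single TIC and lin- tumours (SE 0.62, limma adjusted p = 1.00).

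Genes of the interferon response and of immune cells were measured in the same tumours, and in bulk tissue a change in the number of cells of a type and in the RNA per cell cannot be told apart. All 16 tested genes of the interferon response list had a higher mean in the single TIC group, and 4 rose: Isg15 by 2.12, Bst2 by 2.06, Psmb8 by 1.44 and Psmb9 by 1.18 (limma adjusted p = 0.00648, 0.00698, 0.00866 and 0.0271). With mean raw intensity as a covariate none of these 4 passed (limma adjusted p = 0.0705, 0.0631, 0.0783 and 0.136), with changes of 1.97, 2.08, 1.46 and 1.19. The mean level over that list ranged from 8.44 to 9.85 in primary, 8.78 to 9.97 in lin- and 8.89 to 11.2 in single TIC tumours. Within the 9 single TIC tumours Cxcl10 had a Pearson r of 0.79 with this level (exact permutation p = 0.0086, 0.161 after adjustment over 56 relations between members and marker lists) and a Spearman rho of 0.87, and Cxcl9 had an r of 0.33.

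Of 13 tested macrophage genes 12 were higher and 0 passed, with list means of 8.70 to 10.1 in primary, 9.42 to 10.1 in lin- and 9.60 to 10.5 in single TIC tumours. Of 8 tested T and NK cell genes 7 were higher and 0 passed, with ranges of 6.19 to 9.69, 7.37 to 7.62 and 6.41 to 9.16. Of the tested T and NK cell genes, Prf1 and Ccl5 were detected on 16 arrays, Cd3g, Nkg7 and Klrd1 on 15, Cd3d on 14, Cd3e on 9 and Cd2 on 4. The listed genes Cd4, Cd8a, Gzma, Gzmb and Ncr1 were detected on 0 arrays and not tested. Primary tumour 2 held the highest T and NK cell level (9.69), and its Cxcl9 level (6.46) was the second lowest of the 5 primary tumours. The next highest levels, 9.16 and 8.21, were in single TIC tumours 2 and 9, where Cxcl9 was highest (9.40 and 12.23). Within the 9 single TIC tumours Cxcl9 had an r of 0.44 with the T and NK cell level (exact permutation p = 0.241). Without the 2 tumours farthest from the median of Cxcl9, r was -0.21. The part of these lists in the rise of Cxcl9 was not tested.

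The neutrophil-attracting members gave 1 measured gene, Cxcl1, the mouse chemokine KC, and it passed in no comparison, while its values in single TIC tumours were widely spread. Primary tumours gave 9.15, 9.01, 8.88, 9.33 and 8.91. Lin- tumours had 9.61 and 8.47, and the single TIC tumours ranged from 7.93 to 11.59 with a median of 9.01. All 5 primary values lay within 0.45 of each other, and single TIC tumours lay both below and above all of them.

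The Cxcl1 means were 9.05 ± 0.19, 9.04 ± 0.81 and 9.04 ± 1.12 in primary, lin- and single TIC tumours, and none of the steps between groups passed. Single TIC minus primary was -0.02 (SE 0.46, 95% interval -0.997 to 0.96, limma adjusted p = 0.986). The value of single TIC tumour 3 (11.59) stood apart from the next highest (9.40), and without it the single TIC mean was 8.72 ± 0.61 (n = 8) and the difference from primary tumours was -0.34 (limma adjusted p = 0.475). The lin- minus primary difference was -0.02 (SE 0.69, limma adjusted p = 0.997).

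The SD of Cxcl1 lay at percentile 98.0 of the 9903 genes in single TIC tumours and at percentile 28.1 in primary tumours. The difference in spread between the groups was not tested. Of 12 listed neutrophil genes 4 were tested, 1 was higher in single TIC tumours and 0 passed, with a median log2 change of -0.16. The higher one was Ltf, by 1.08 (SE 0.61, limma adjusted p = 0.283), while S100a8, S100a9 and Csf3r had -0.19, -0.44 and -0.14. S100a8 and Ltf were detected on 16 of 16 arrays, Csf3r on 10 and S100a9 on 3. Camp, Ngp, Retnlg, Elane, Mpo, Il1r2 and Cxcr2, the receptor of these ligands, were detected on 0 arrays. The mean level of the 4 tested genes ranged from 6.46 to 7.87 in primary, 5.99 to 7.47 in lin- and 6.19 to 7.88 in single TIC tumours.

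**Figure D2:**
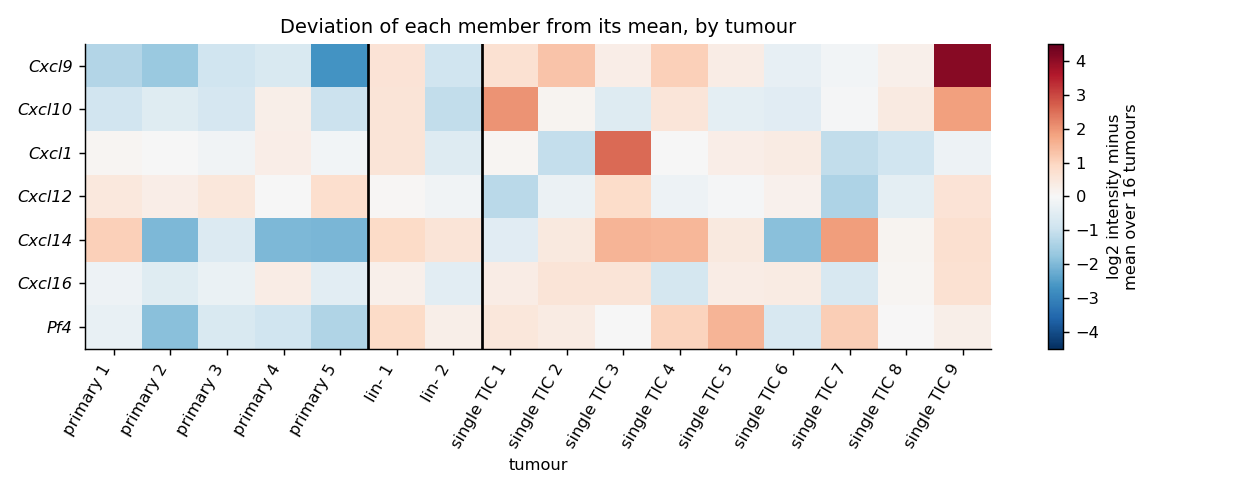
Log2 intensity of each tested member in each tumour (columns, with lines between the 3 groups) minus the member's mean over the 16 tumours, from blue (lower) to red (higher). The high value of Cxcl9 is in single TIC tumour 9, that of Cxcl1 in single TIC tumour 3, and Cxcl14 is high in primary tumour 1 and low in single TIC tumour 6.

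The 2 stromal and epithelial members had opposite signs in single TIC against primary tumours and neither passed. Cxcl12 encodes stromal cell-derived factor 1 (SDF-1). Primary tumours gave 10.47, 10.30, 10.52, 9.97 and 10.77. In the lin- tumours it was 10.04 and 9.84, and the single TIC tumours ranged from 8.61 to 10.83 with a median of 9.76. Single TIC tumours 7 (8.61) and 1 (8.78) were the lowest, and the highest single TIC value lay above all primary values.

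The Cxcl12 means were 10.41 ± 0.30 in primary, 9.94 ± 0.14 in lin- and 9.78 ± 0.75 in single TIC tumours. Single TIC minus primary was -0.62 (SE 0.31, 95% interval -1.28 to 0.04, limma adjusted p = 0.224), with 2 of 9 single TIC tumours above the primary mean. Lin- minus primary was -0.46 (SE 0.47, limma adjusted p = 0.815), and single TIC minus lin- was -0.16 (SE 0.44, limma adjusted p = 1.00), so no neighbours in this order differed by the test.

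Cxcl12 had 5 probes, of which 3 were kept. The other kept probes, annotated to other transcript records of the gene, had the same sign in single TIC against primary tumours, at -0.55 (SE 0.40) and -0.37 (SE 0.31), and did not pass with limma adjusted p-values over 14520 probes of 0.413 and 0.487. In lin- against primary tumours these probes gave smaller differences than the brightest, -0.24 (SE 0.60) and -0.02 (SE 0.46), with limma adjusted p-values over 14520 probes of 0.938 and 0.992. The remaining probes of the gene were detected on 0 arrays.

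Cxcl14, also called BRAK, was detected in 2 of 5 primary, 2 of 2 lin- and 8 of 9 single TIC tumours by its brightest probe. Primary tumours gave 8.30, 5.19, 6.58, 5.18 and 5.15, of which only 8.30 and 6.58 were detected. The lin- tumours gave 8.06 and 7.81, and the single TIC tumours ranged from 5.33 (not detected) to 9.08 with a median of 7.66. Primary tumour 1 thus lay within the range of the secondary tumours, and single TIC tumour 6 lay near the 3 primary tumours in which this probe gave no detected signal. The other kept probe detected the gene in primary tumours 1 and 4 (6.84 and 5.83) and not in primary tumour 3 (5.37), so the probes differed in which primary tumours they detected.

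The Cxcl14 means were 6.08 ± 1.38, 7.69 ± 1.16 and 7.94 ± 0.18 in primary, single TIC and lin- tumours. Single TIC minus primary was 1.61 (SE 0.60, 95% interval 0.33 to 2.89, unadjusted p = 0.0171) and did not pass after adjustment (limma adjusted p = 0.113), with 8 of 9 single TIC tumours above the primary mean. In this comparison 25.3% of all genes had an unadjusted p under 0.05. Lin- minus primary was 1.85 (SE 0.91, 95% interval -0.07 to 3.77, limma adjusted p = 0.532). Single TIC minus lin- was -0.25 (SE 0.85, limma adjusted p = 1.00). In single TIC against primary tumours the second kept probe had the same sign, 1.20 (SE 0.38, limma adjusted p over 14520 probes = 0.0676). Its means were 5.57 ± 0.81 in primary, 6.77 ± 0.68 in single TIC and 6.69 ± 0.98 in lin- tumours. Single TIC minus lin- was thus 0.07 (SE 0.53) by this probe, with the other sign.

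For Cxcl14 the call against primary tumours depended on single tumours: limma adjusted p was 0.0474 without primary tumour 1 (change 2.16) and 0.0461 without single TIC tumour 6 (change 1.90). The authors' processed values gave a smaller difference of 0.85 (limma adjusted p = 0.133).

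Fibroblast genes were high in the same tumours. Of 13 tested fibroblast genes 10 had a higher mean in the single TIC group and 0 passed, with a median log2 change of 1.04. The mean level of the list was 8.08 in primary tumour 1, 7.43 in primary tumour 3 and 6.14, 6.02 and 5.88 in primary tumours 5, 4 and 2. It was 8.17 and 7.82 in the lin- tumours and ranged from 6.20 to 8.38 in single TIC tumours, with single TIC tumour 6 the lowest. By the brightest probe Cxcl14 was detected in primary tumours 1 and 3, the 2 with the highest fibroblast level. By the other kept probe it was detected in primary tumours 1 and 4, the latter with a fibroblast level of 6.02.

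Within the 9 single TIC tumours, the brightest probe of Cxcl14 had a Pearson r of 0.97 with the mean level of the 13 fibroblast genes (exact permutation p = 8.27e-06). The Spearman rho was 0.98 (exact permutation p = 4.96e-05). Adjusted over the 56 relations between 7 members and 8 marker lists, which were computed after values had been seen, the p of r was 0.000463 and it was the only one of the 56 under 0.05. Without the 2 tumours farthest from the median of Cxcl14, r was 0.94 (n = 7, exact permutation adjusted p = 0.0333). Cxcl12 had an r of 0.12 with the same list. No correlation was computed for the other kept probe of Cxcl14, so the relation is given for 1 probe. That other probe gave 7.12 in single TIC tumour 1, where the fibroblast level was 6.69, and 6.32 in single TIC tumour 2, where it was 7.93. Its lowest value, 5.35, was in single TIC tumour 6, which also had the lowest fibroblast level (6.20). The part of fibroblast content in the difference of Cxcl14 between groups was not tested.

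**Figure D3:**
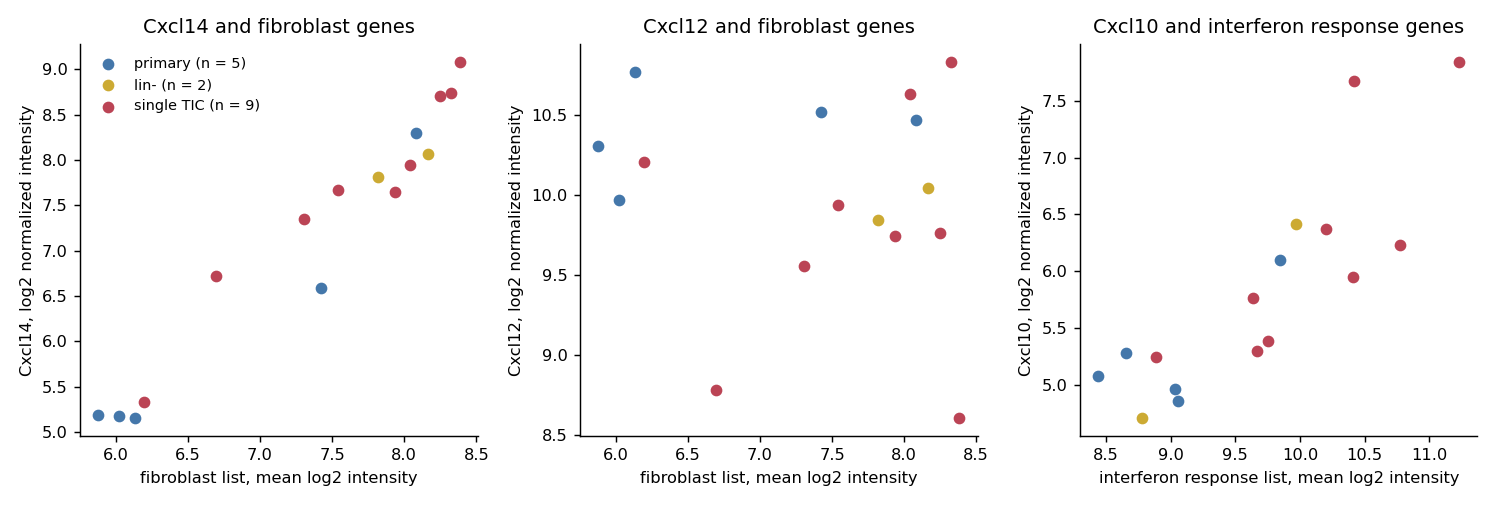
Log2 intensity of Cxcl14, Cxcl12 and Cxcl10 (vertical axes) against the mean log2 intensity of the fibroblast or interferon response genes (horizontal axes), 1 point per tumour and coloured by group. Within single TIC tumours the brightest probe of Cxcl14 had r = 0.97 with the fibroblast level, and Cxcl12 had r = 0.12 with it. Cxcl10 had r = 0.79 with the interferon response level. The other kept probe of Cxcl14 is not shown.

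Of the transmembrane and platelet members, Pf4 rose in single TIC against primary tumours and Cxcl16 did not pass. Pf4 encodes platelet factor 4, also known as Cxcl4, which binds heparin and is released when platelets are activated. Primary tumours gave 6.74, 5.18, 6.36, 6.17 and 5.70, of which 5.18 and 5.70 were not detected. The lin- tumours gave 7.92 and 7.31, and the single TIC tumours ranged from 6.34 to 8.60 with a median of 7.43. Both lin- tumours and 8 of the 9 single TIC tumours lay above all primary tumours, the exception being single TIC tumour 6 (6.34).

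The Pf4 means were 6.03 ± 0.61 (SD, n = 5) in primary, 7.52 ± 0.69 (n = 9) in single TIC and 7.62 ± 0.43 (n = 2) in lin- tumours. Between single TIC and primary tumours Pf4 rose by 1.49 (SE 0.33, 95% interval 0.78 to 2.19, 2.80-fold, limma adjusted p = 0.0187), with 9 of 9 single TIC tumours above the primary mean. Lin- minus primary was a similar 1.59 (SE 0.50, 95% interval 0.53 to 2.64, unadjusted p = 0.00564) that did not pass after adjustment (limma adjusted p = 0.333). Pf4 was the 1 tested member without overlap between lin- and primary tumours, where 14.9% of all genes had none. Single TIC minus lin- was -0.10 (SE 0.46, 95% interval -1.09 to 0.88, limma adjusted p = 1.00).

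The rise of Pf4 did not pass with mean raw intensity as a covariate (limma adjusted p = 0.0968) or without primary tumour 5 (0.0526), and leaving out other tumours gave adjusted p from 0.0124 to 0.0364. The authors' processed values gave a smaller rise of 0.78 (limma adjusted p = 0.0244).

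Most platelet genes other than Pf4 were detected on few or no arrays. Of 14 listed platelet and megakaryocyte genes 3 were tested, 1 was higher in single TIC tumours and 0 passed, with a median log2 change of -0.04. Itga2b, which encodes an integrin subunit of platelets, was detected in 5 of 5 primary, 2 of 2 lin- and 8 of 9 single TIC tumours, with single TIC minus primary at -0.48 (SE 0.28, limma adjusted p = 0.285). Clec1b was detected in 1 of 5 primary, 0 of 2 lin- and 5 of 9 single TIC tumours, with 0.12 (SE 0.19, limma adjusted p = 0.749). Itgb3 had -0.04 (SE 0.13, limma adjusted p = 0.899). Ppbp, another chemokine of platelet granules, and Gp9 were each detected on 1 array, and Gp1bb, Gp5, Tubb1, Treml1 and Gata1 on 0. The mean level of the 3 tested genes ranged from 5.84 to 6.20 in primary, 5.88 to 6.08 in lin- and 5.48 to 6.19 in single TIC tumours. The macrophage list ranged as given with Cxcl9, and its part in the rise of Pf4 was not tested.

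Cxcl16, which is both a membrane-bound ligand and a scavenger receptor, was detected in all 16 tumours. Primary tumours gave 9.47, 9.14, 9.38, 10.04 and 9.24. Lin- tumours had 9.92 and 9.23, and the single TIC tumours ranged from 8.89 to 10.37 with a median of 10.03. Single TIC tumours 4 (8.89) and 7 (8.98) lay below all primary tumours, while primary tumour 4 (10.04) lay at the single TIC median and above the other primary tumours. The means were 9.45 ± 0.35, 9.57 ± 0.49 and 9.85 ± 0.55 in primary, lin- and single TIC tumours. Single TIC minus primary was 0.40 (SE 0.26, 95% interval -0.14 to 0.94, limma adjusted p = 0.341), lin- minus primary was 0.12 (SE 0.38, limma adjusted p = 0.954) and single TIC minus lin- was 0.28 (SE 0.36, limma adjusted p = 1.00).

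**Figure D4:**
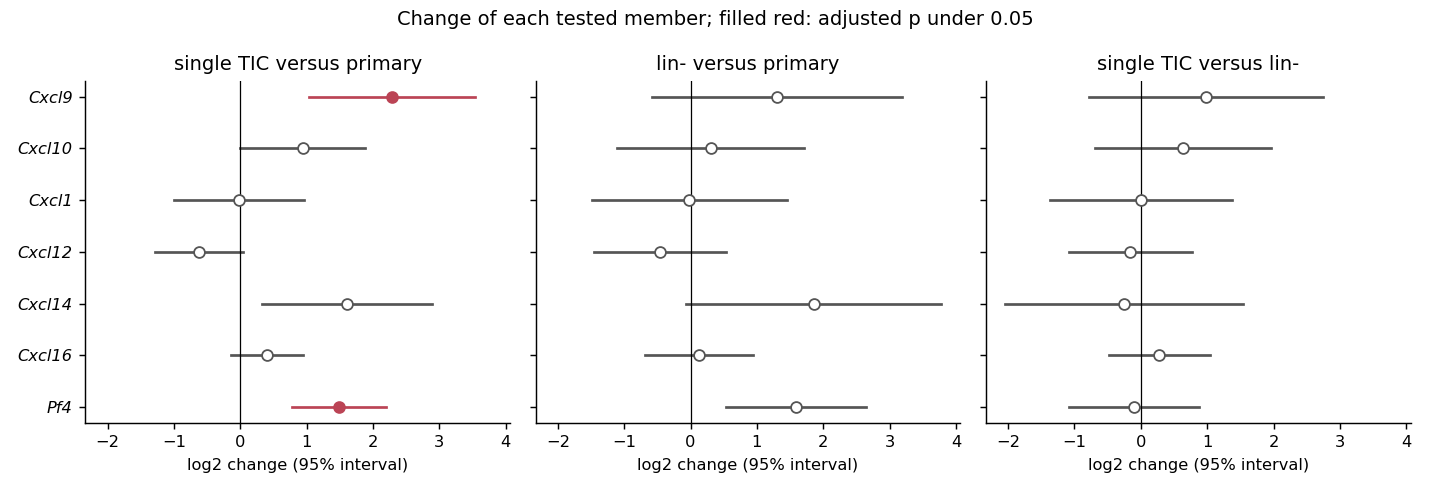
Log2 change of each tested member (horizontal axis, with its 95% interval as a line) in single TIC against primary, lin- against primary and single TIC against lin- tumours. Filled red points mark an adjusted p under 0.05, which Cxcl9 (2.29) and Pf4 (1.49) reached in the first comparison and no member reached in the other 2.

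With all 11 secondary tumours taken as 1 group against the 5 primary tumours, the same 2 members rose, where 7.65% of all genes passed. Cxcl9 rose by 2.11 (SE 0.58, limma adjusted p = 0.0353) and Pf4 by 1.51 (SE 0.31, limma adjusted p = 0.0109), each with 11 of 11 secondary tumours above the primary mean. Cxcl14 was higher by 1.65 (SE 0.57, limma adjusted p = 0.0811), in 10 of 11 tumours, and did not pass except without primary tumour 1 (0.0294) or single TIC tumour 6 (0.0303). Its other kept probe was higher by 1.19 (SE 0.36) and did pass when all 14520 probes were tested (limma adjusted p = 0.0489). This grouping shares the primary tumours and 9 of its 11 secondary tumours with the single TIC comparison and is not separate evidence. The rise of Cxcl9 did not pass with the authors' processed values or without background correction (limma adjusted p = 0.0724 in each), with all probes (0.0543), with array weights (0.0800), with mean raw intensity as a covariate (0.200), or without single TIC tumour 4 and primary tumour 2 (0.0706). With 1 tumour left out its adjusted p ranged from 0.00837 to 0.104, and the call was lost without primary 1, 2, 3 or 5 or single TIC 2. Pf4 did not pass with the covariate (limma adjusted p = 0.0661).

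The other genes of the pathway were mostly near background or did not pass. Of 5 further CXC ligands 2 were tested and 0 passed: Cxcl13, which attracts B cells, was detected in 1 lin- and 1 single TIC tumour (single TIC minus primary 0.73, SE 0.71, limma adjusted p = 0.557), and Cxcl17 had -0.26 (limma adjusted p = 0.346). Of 8 receptors 2 were tested and 0 passed. Cxcr4, the receptor of Cxcl12, was detected in 16 of 16 tumours with a difference of -0.25 (SE 0.23, limma adjusted p = 0.528). Cxcr3, the receptor of Cxcl9 and Cxcl10, and Cxcr6, the receptor of Cxcl16, were each detected in 1 primary tumour, and Cxcr1, Cxcr2, Ackr1 and Ackr3 in 0 tumours.

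Of 24 genes that act upstream of these ligands 18 were tested, 9 had a higher single TIC mean and 0 passed, with a median log2 change of -0.02, equal to that of all genes at this precision. Irf7, a transcription factor of the interferon response, had 0.92 (SE 0.37, limma adjusted p = 0.138), and Jak1, a kinase of interferon receptors, had -0.46 (limma adjusted p = 0.0980). Nfkbiz, a regulator of NF-kB target genes, had -0.44 (limma adjusted p = 0.112), and Irf9 had 0.43 (limma adjusted p = 0.117). Ifng, the gene of interferon gamma, was detected on 0 arrays, as were Il17a and Ifnar1.

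Of 6 proteases that cut or shed CXC ligands 4 were tested, 2 were higher and 0 passed. Mmp2, a gelatinase that cuts Cxcl12, had 0.98 (SE 0.35, limma adjusted p = 0.103), and Dpp4, a dipeptidyl peptidase that trims Cxcl9, Cxcl10 and Cxcl12, had -0.93 (SE 0.36, limma adjusted p = 0.121).

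Within the 9 single TIC tumours the members varied more than most genes. Among the 9903 genes tested, the SD lay at percentile 99.0 for Cxcl9, 98.3 for Cxcl14, 98.0 for Cxcl1, 97.1 for Cxcl10, 94.4 for Cxcl12, 93.1 for Pf4 and 89.5 for Cxcl16. The median SD of all genes in these tumours was 0.25. Without its highest tumour the single TIC SD was 0.56 for Cxcl9 and 0.61 for Cxcl1. In primary tumours the percentiles were also high for Cxcl14 (99.1), Cxcl9 (95.8), Pf4 (91.7) and Cxcl10 (86.4). They were lower there for Cxcl16 (70.9), Cxcl12 (60.3) and Cxcl1 (28.1).

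No pair of members passed the test for moving together across the 9 single TIC tumours. Of 21 pairs, 0 passed after Benjamini-Hochberg adjustment (smallest adjusted exact permutation p = 0.518), and 1 pair had an unadjusted p of r under 0.05. That pair was Cxcl9 and Cxcl10, with r = 0.67 (exact permutation p = 0.0456, n = 9) and rho = 0.62 (exact permutation p = 0.0857), and r = 0.59 without the 2 tumours farthest from the median of Cxcl9. Cxcl1 and Cxcl12 had r = 0.62 (exact permutation p = 0.0707) and rho = 0.68, and without the 2 farthest tumours r was 0.10, so that the relation rested on those tumours. Cxcl14 and Pf4 had r = 0.59 (exact permutation p = 0.0934), which was 0.00 without the 2 farthest tumours.

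**Figure D5:**
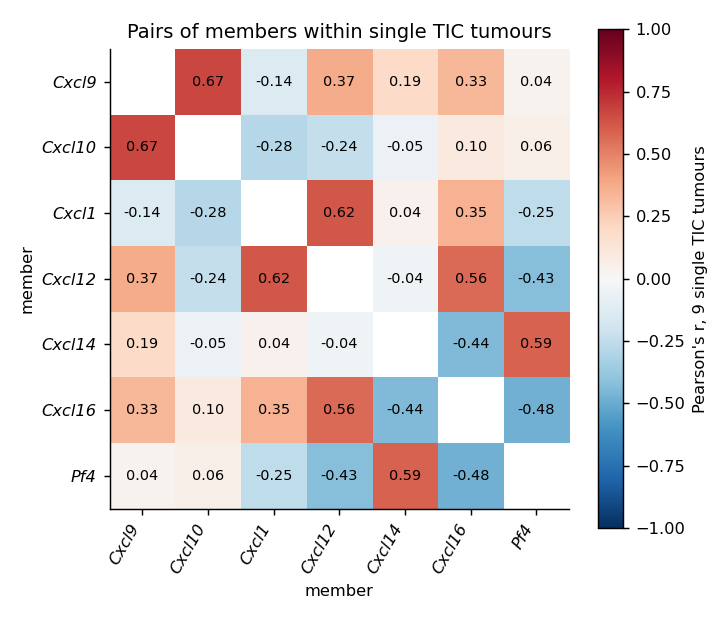
Pearson r between the log2 intensities of each pair of tested members over the 9 single TIC tumours, from blue (negative) to red (positive). The highest is 0.67 for Cxcl9 with Cxcl10 and the lowest is -0.48 for Cxcl16 with Pf4, and 0 of 21 pairs passed after adjustment.

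For each member the genes with the most similar pattern were taken as the 3 with the highest Pearson r over the 16 tumours after removing group means, out of 9902 others, as a description with no test. The genes most like Cxcl9 were Ubd (0.82), Tgtp1 (0.81) and Tmem106a (0.81), and those most like Cxcl10 were Irgm2 (0.90), Acsl3 (0.90) and Tnfsf10 (0.87). Ubd, Tgtp1 and Irgm2 are known as interferon-induced genes. Cxcl1 was most like Msrb1 (0.82), Fhl2 (0.79) and Socs3 (0.75), the last an inhibitor of cytokine signalling. Cxcl12 was most like Zfp36l1 (0.91), Usp54 (0.90) and Syt11 (0.87).

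The highest values belonged to Cxcl14, with Pi16 (0.98), Fbln1 (0.98) and Il33 (0.97). Fbln1, which encodes the matrix protein fibulin 1, is also on the fibroblast list above, and Pi16 is known as a fibroblast gene. Cxcl16 was most like Gmfg (0.89), Coro1b (0.88) and Muc1 (0.88), and Pf4 was most like B3galt4 (0.93), Mgat1 (0.90) and Poll (0.82). All of these values rest on the same 16 arrays, and single high tumours such as those of Cxcl9 and Cxcl1 weigh in them.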

How the data were processed

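Per the file headers, 1 deposited table gives an intensity without normalization (linear) and a detection p-value for each of 25697 probes in each of 16 tumours, with 1 array per tumour. The authors' processed table gives linear intensities that, by their shared quantiles, were already normalized, and after log2 it served as an alternative. BeadStudio made the files, per the submitters' processing notes, with version and settings not given in the sources used here. Depth has no meaning for arrays, and the number of arrays limits the precision.

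Intensities were corrected by normexp with background inferred from detection p-values (offset 16), quantile normalized and taken to log2 with limma 3.58.1 in R 4.3.3. The offset understates the changes of dim genes. Probes with detection p under 0.05 on at least 2 arrays were kept (14520), and each of 9903 genes was represented by its brightest kept probe. Symbols came from the array annotation, which gave 1 symbol for 23978 probes and none for 1719. Entrez identifiers of 23962 probes were found in a RefSeq table of GRCm38.p6.

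Groups came from the labels. They were compared in 1 fit with 3 group means (lmFit, eBayes), and all secondary tumours in a fit with 2 means, two-sided, with Benjamini-Hochberg adjustment over all genes and a threshold of 0.05. The script was tested on simulated data. Correlations within single TIC tumours used an exact two-sided permutation test written in Python 3.11.15 with numpy 2.4.6, with ranks from scipy 1.17.1. The values without the 2 tumours farthest from the median of the first measure are given beside them. The members and lists were chosen with earlier results of these data known. Named genes are all members, pathway genes by fixed lists (those that passed, then the largest changes, at most 4 per list, with detection given for others) and the 3 most similar genes per member. Alternatives were the authors' processed values, no background correction, offset 50, no filter, a stricter filter (detection p under 0.01 on at least 5 arrays), the mean over probes, array weights, mean raw intensity as a covariate, only the groups compared and leaving out each tumour. Leaving out single TIC tumour 4 and primary tumour 2 together was added after seeing the data.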

Additional observations from a re-analysis of the deposited data

Results flagged for a closer look

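Values within groups of 4 to 10 tumours were searched for a highest or lowest tumour set apart from the others by Dixon's ratio at the 95% level, for 7 members and 8 marker lists in the primary and single TIC groups. Of 30 groups 4 had such a tumour, and chance gives about 1 in 20. Cxcl9 was 12.23 in single TIC tumour 9, where the next highest of the 9 tumours was 9.40. Cxcl1 was 11.59 in single TIC tumour 3, where the next highest was also 9.40. The mean level of the T and NK cell genes was 9.69 in primary tumour 2, where the next highest of the 5 was 6.93. The mean level of the mammary epithelial genes was 10.4 in single TIC tumour 4, below the next lowest at 11.2. The genes of that list were unlike in spread: their SD over single TIC tumours ran from 0.13 for Krt8 to 1.70 for Wap and 2.15 for Csn2. What set these tumours apart was not tested.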

How the results depend on the processing

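In single TIC against primary tumours 2 members passed. With the authors' processed values, no background correction, array weights, or without single TIC tumour 4 and primary tumour 2, 1 passed (Pf4), and 0 with mean raw intensity as a covariate, where 18 of all genes passed. Leaving out 1 tumour gave 0 to 3 members and 260 to 784 genes: 0 members without primary 5 and 3 without single TIC 6, and 294, 260 and 278 genes without primary 1, 3 and 5. For all secondary against primary tumours, 1 passed with the authors' values, no background correction, all probes, array weights or without single TIC 4 and primary 2, 0 with the covariate and 1 to 3 with 1 tumour left out. In the comparisons of lin- with primary and single TIC with lin-, 0 members passed under every setting run. Signs turned only for differences that passed nowhere. Cxcl1 turned to 0.028 with the authors' values and without background correction, 0.00096 with offset 50, 0.050 with weights and 0.47 with the covariate in single TIC against primary (-0.34 to 0.12 with 1 tumour left out), to 0.0011, 0.0010 and 0.47 with the authors' values, no correction and the covariate in lin- against primary (-0.59 to 0.56), to 0.027, 0.027, 0.0099, 0.075 and 0.0025 with the authors' values, no correction, offset 50, weights and without single TIC 4 and primary 2 in single TIC against lin- (-0.57 to 0.57), and to 0.023, 0.023, 0.052 and 0.47 with the authors' values, no correction, weights and the covariate in all secondary against primary (-0.27 to 0.093). With 1 tumour left out, lin- against primary ran from -0.55 to 1.15 for Cxcl10 and -0.22 to 0.47 for Cxcl16, and single TIC against lin- from -0.21 to 1.49 for Cxcl10, -0.42 to 0.046 for Cxcl14, -0.066 to 0.63 for Cxcl16 and -0.41 to 0.20 for Pf4. The cause was not tested. Pairs of members gave 0 calls under every setting run. The 2 lin- tumours leave wide intervals, and signals near background bound what dim members can show. No paired analysis was possible because replicate numbers were given by order and pair no tumours.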

Other observations

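Among the relations between members and marker lists within the 9 single TIC tumours, 5 of Cxcl16 and Cxcl10 are named first. Their r values became weaker without the 2 tumours farthest from the member's median. They were chosen for mention after their values were seen. Cxcl16 had r = 0.85 with the 3 tested platelet genes, which was 0.24 without those tumours, and r = 0.79 with the T and NK cell genes, which was 0.48. It had r = 0.73 with the neutrophil genes, which became 0.14, and r = 0.72 with the mammary epithelial genes, which became -0.21. Cxcl10 had r = -0.76 with the endothelial genes, which became -0.19. None of these 5 passed by exact permutation after adjustment over the 56 relations (adjusted p from 0.161 to 0.235). Other relations of these members grew or changed sign without those tumours. Cxcl10 went from r = 0.50 to -0.90 with the macrophage genes and from -0.18 to -0.74 with the mammary epithelial genes. Cxcl16 went from -0.31 to 0.58 with the fibroblast genes. These did not pass either (exact permutation adjusted p without those tumours = 0.228, 0.259 and 0.660). With the interferon response genes Cxcl10 had r = 0.81 without its 2 farthest tumours, and this did not pass either (exact permutation adjusted p = 0.391).

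Of 10 tested endothelial genes 9 had a higher mean in the single TIC group and Ramp2, part of the adrenomedullin receptor, rose by 1.33 (limma adjusted p = 0.0233). Of 10 tested mammary epithelial genes 4 had one, and Cldn7, which encodes a claudin, rose by 0.54 (limma adjusted p = 0.0179). With mean raw intensity as a covariate neither passed (limma adjusted p = 0.113 for Ramp2 and 0.104 for Cldn7).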
